A study of Homo sapiens with 28 samples.

Results

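Of 41384 regions with H3K27me3 in bone marrow, 806 were held by every one of 8 mice, 5 DKOITD and 3 WT, and these are described here. H3K27me3 is the trimethylation of lysine 27 on histone H3, measured by chromatin immunoprecipitation and sequencing (ChIP-seq). The members were chosen from the H3K27me3 peaks themselves. Peaks of all 8 libraries were merged into regions, a library held a region when its peaks covered at least 10% of it, and members were held by all 8. Of the other regions, 479 were held by 7 libraries and 29553 by a single one.

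H3K27me3 is written by Polycomb repressive complex 2, whose catalytic subunit is EZH2 or its relative EZH1, and it lies over silenced genes, above all those of embryonic patterning. The complex is recruited to CpG-rich promoters and the mark spreads outward from there, so that long stretches such as the Hox clusters can be covered. Polycomb repressive complex 1 binds the mark through its Cbx subunits. Acetylation of the same lysine, H3K27ac, is found at active promoters and enhancers, and a single histone tail cannot carry both marks at that position. In blood, Polycomb keeps the genes of other tissues and of other blood lineages silent.

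All mice were C57BL/6 and homozygous for floxed alleles of both Ezh2 (fl/fl) and Runx1 (fl/fl). The 5 DKOITD mice were in addition Rag1 Cre/+ and Flt3 ITD/+, and the 3 WT mice were +/+ at Rag1 and at Flt3, so the controls also carried the floxed alleles. Cre stood under Rag1, a gene of early lymphoid cells, so deletion of Ezh2 and Runx1 is limited to cells that have expressed it, and all other marrow cells keep both genes. Flt3 ITD is an internal tandem duplication that activates this cytokine receptor. DKOITD bone marrow was used whole, whereas from WT bone marrow the cells with surface Kit were enriched by CD117 microbeads, so genotype and cell preparation cannot be told apart in any comparison below. The labels used here give no ages. The data are broad peaks called by the authors, separately for each library, and the peaks carry no absolute level because the Drosophila spike-in was not used.

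The libraries differed widely in how much was called. H3K27me3 peaks covered 5.2 Mb in DKOITD48, 30.3 Mb in DKOITD52, 3.17 Mb in DKOITD53e, 5.24 Mb in DKOITD83 and 40.5 Mb in DKOITD185, against 27.3 Mb in WT1, 13.8 Mb in WT2 and 21.7 Mb in WT3. Depth did not follow that order: after duplicate removal the libraries held 3343831, 4752231, 5492339, 5280478 and 6411696 fragments in the DKOITD mice, against 2766339, 3994483 and 3780713 fragments in the WT mice. Values of single mice follow, within each group, this order of mice throughout. DKOITD53e, with the shortest territory, was thus deeper than every WT library, although no value here separates the enrichment of a library from the amount of mark in its cells. H3K27ac lay over 3, 4, 3, 0 and 4 of 4 Y-linked genes in the DKOITD mice in the same order and over 0 in each WT mouse, so Y-linked signal also differed between the groups, and sex is not given in the labels used here. Of 6 genes of blood cells in general, Ptprc, Spi1, Cd53 and Laptm5 carried H3K27ac in 5 DKOITD and 3 WT mice, and Coro1a and Lyl1 in 4 and 3. Of the progenitor genes, Kit carried it in 0 DKOITD and 3 WT mice, Myb in 4 and 3, Cd34 in 1 and 0, and Gata2 in none. Of 13 genes of endothelium, stroma, liver, muscle and neurons, Kdr carried it in 1 DKOITD and 1 WT mouse and Tubb3 in 1 and 0. The other 11 (Cdh5, Tek, Col1a1, Col1a2, Cxcl12, Lepr, Alb, Apoa1, Myod1, Myh3 and Neurod1) carried it in no mouse. Among the engineered genes, Ezh2, Runx1, Rag1 and Flt3 all lay outside the members.

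Members were long and lay at genes. Their median length was 8.44 kb (quartiles 5.89 and 13.7 kb, range 0.27 to 147 kb), against 6.41 kb for regions held by 7 libraries, 3.52 kb for regions held by 4 to 6 and 0.468 kb for regions held by 1 to 3. Together they spanned 9.42 Mb. By length, 15 members were under 1 kb, 111 had 1 to 5 kb, 370 had 5 to 10 kb, 197 had 10 to 20 kb, 98 had 20 to 40 kb and 15 exceeded 40 kb. A protein-coding gene began or ended in 84.2% of members, against 78.9% of regions held by 7 libraries, 50.5% of those held by 4 to 6 and 2.62% of those held by 1 to 3. The RefSeq table used for genes gives no strand, so a gene end here is either its start or its finish. Longer regions have more room for a gene end, and the length differences among these classes were set by the rule.

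In all, 788 of 21883 protein-coding genes (3.60%) had an end in a member, and 219 had both ends in the same member. One gene was found in 596 members, 2 genes in 68 and 3 or more in 15. Of the 127 members with no gene end, 69 lay inside a gene and 58 touched none. Of those 58, 26 held another annotated transcript, such as a long noncoding RNA or a microRNA. MicroRNA genes lay in 19 members, among them Mir196b in HoxA, Mir196a-1 in HoxB, Mir10b in HoxD and Mir196a-2 and Mir615 in HoxC. Members holding Mir124a-1, Mir124a-3, Mir9-1 and Mir9-2, all known from neurons, were also among them. The X chromosome held 7 members, among them those at Sowahd, Mamld1, Tmem28, Cited1, Pabpc1l2a and Nup62cl. Its share of all H3K27me3 territory was 0.676%, 0.964%, 0.451%, 1.32% and 0.841% in the DKOITD mice, against 5.15%, 2.25% and 3.31% in the WT mice, so every WT mouse had more of its called territory on the X than any DKOITD mouse. H3K27ac lay over 0 of 4 Y-linked genes in each WT mouse and in DKOITD83, which had the largest X share of the DKOITD mice. Sex is not given in the labels used here, and whether this share goes with sex or genotype was not tested. The genes of the preceding sentences on microRNAs and the X were picked after their values were seen.

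The 10 longest members were led by the HOX clusters, whose homeobox factors set position along the body axis. HoxC was the longest, at 147 kb (mm10 chr15:102903051-103050265), and held all 9 genes from Hoxc13 to Hoxc4 with the noncoding RNA Hotair. Its covered share was 39.5%, 97.6%, 19.98%, 38.2% and 99% in the DKOITD mice, against 92.9%, 71.3% and 85.9% in the WT mice. In DKOITD48, DKOITD53e and DKOITD83 less than the smallest WT share was left, in many separate pieces, whereas DKOITD52 and DKOITD185 were above every WT mouse. The HoxD region with Evx2 (81.4 kb, mm10 chr2:74643608-74724988) kept more, with 72.3%, 93.2%, 61.3%, 63.9% and 97.9% in the DKOITD mice, against 92.5%, 84.1% and 92.1% in the WT mice. The HoxA region (70.0 kb, mm10 chr6:52211269-52281305), which holds Hoxa7, Hoxa9, Hoxa10, Hoxa11, Hoxa13 and one end of Hoxa3, had 76.9%, 96.2%, 56.3%, 69.7% and 96.6% in the DKOITD mice, against 88.1%, 73.2% and 87.4% in the WT mice. Here DKOITD48 overlapped the WT range and DKOITD53e and DKOITD83 lay under it. The HoxB region with Hoxb9 to Hoxb5 and one end of Hoxb3 (60.7 kb) had 62.4%, 96.4%, 36.3%, 54.8% and 97.9% in the DKOITD mice, against 90.0%, 67.4% and 79.3% in the WT mice, and a second one with Hoxb13 and Ttll6 measured 47 kb.

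Outside the Hox clusters the longest member was an array of 5S ribosomal RNA genes on chromosome 8 (88 kb, mm10 chr8:123537331-123625332). It was covered at 98.6%, 99.4%, 83.1%, 96.8% and 99.9% in the DKOITD mice, against 99.1%, 97.7% and 99% in the WT mice. All mice but DKOITD53e thus stood at 96.8% or more. Egflam, which encodes the retinal matrix protein pikachurin, had a 55.2 kb member with 32.1%, 91.5%, 12%, 24.4% and 99.9% in the DKOITD mice, against 42.5%, 25.4% and 32.9% in the WT mice. DKOITD52 and DKOITD185 set the extent of this region, and only 0.779 kb of it was covered in all 8 mice. Tlx1, a homeobox gene needed for the spleen and known as an oncogene of T-cell leukaemia when misexpressed, had 54.5 kb with 23.4%, 76.7%, 18%, 20.7% and 89.7% in the DKOITD mice, against 64%, 35.7% and 61% in the WT mice. Pax2, a kidney and midbrain factor (49.5 kb), and Gata4, a heart and endoderm factor (47.5 kb), were the other long single-gene members. Gata4 was covered at 48.4%, 89.9%, 25.8%, 40.9% and 93.9% in the DKOITD mice, against 84.3%, 62.3% and 81% in the WT mice.

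Members differed in how completely they were held. Among the 680 members of at least 5 kb, the 10 with the highest minimum cover over the mice included a gene-free stretch at the start of chromosome 9, the 5S array, the 18S repeat unit Rn18s-rs5 and regions at Tbr1, E030030I06Rik with Raet1e, Zic5 with Zic2, Lbx1 and Isl2 and next to Cbx8. Tbr1, a T-box factor of cortical neurons, was covered at 76.9%, 100%, 78.2%, 80.5% and 90.5% in the DKOITD mice, against 90.5%, 80.7% and 83.2% in the WT mice. Lbx1, a homeobox factor of spinal cord and migrating muscle precursors, had 83%, 96.7%, 66.9%, 78.3% and 99.8% in the DKOITD mice, against 94.5%, 90.4% and 96% in the WT mice. The region next to Cbx8, a gene of Polycomb repressive complex 1 (21.6 kb, mm10 chr11:119041168-119062789) starts 0.255 kb from that gene. It was covered at 84%, 89.4%, 83.9%, 77.3% and 97.8% in the DKOITD mice, against 88.3%, 80.1% and 88.8% in the WT mice. DKOITD48 and DKOITD53e lay within the WT range there and DKOITD83 under it.

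Part of this completeness was not domain-like. In 20 members the local background implied by the authors' pileup and fold enrichment was at least 2 times the library median, and 13 of these were under 1 kb. They included the chromosome 9 stretch, Rn18s-rs5, a gene-free stretch of chromosome 2 and the Fcgr3 region. Of the 73 members covered at 50% or more in every mouse, 17 were of this kind. At the other limit, Slc26a4 and Tmem74b were among the members just inside it, with a cover of 10.0% in DKOITD53e, and Fgf5, Prok2 and a gene-free region of chromosome 2 missed the limit with 9.95%, 9.93% and 9.94% in the same mouse. DKOITD53e alone was missing from 399 of the 479 regions held by 7 libraries, so this library set most of the boundary between members and the next regions.

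**Figure D1:**
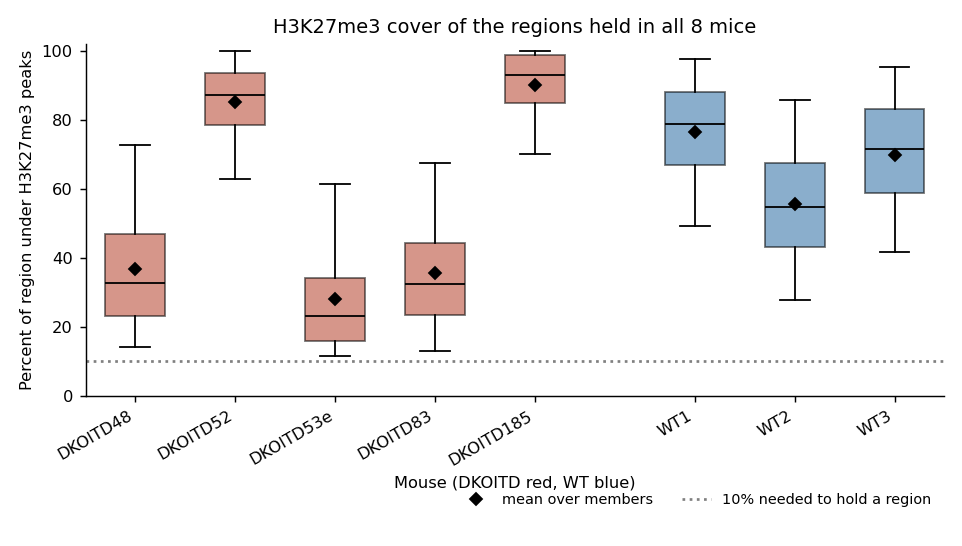
Percent of each region under H3K27me3 peaks (y axis) in each mouse (x axis, DKOITD left, WT right) over the 806 regions held in all 8 mice. Boxes give quartiles and median, whiskers the 5th and 95th percentiles, diamonds the mean; DKOITD52 and DKOITD185 lie above the WT mice and DKOITD48, DKOITD53e and DKOITD83 below them.

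The mean percent of a member's length that was covered was 36.9 in DKOITD48, 85.1 in DKOITD52, 28 in DKOITD53e, 35.6 in DKOITD83 and 90.0 in DKOITD185, against 76.3 in WT1, 55.5 in WT2 and 69.9 in WT3. The group means were 55.1% ± 29.9 (SD, n = 5) in DKOITD and 67.3% ± 10.7 (SD, n = 3) in WT marrow, a difference of -12.1 percentage points. No test was made, because the same peaks chose the members. The DKOITD mice fell on both sides of the WT mice: 2 above all 3 and 3 below all 3. In bulk chromatin, fewer cells carrying the mark and less mark per cell cannot be told apart. The sign of the mean difference rested on DKOITD48, DKOITD53e and DKOITD83, and without them it was 20.3 points. With each library reduced to its 1891 strongest peaks it was 0.253 points, so the direction also depended on how many weak peaks were counted.

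Member by member the same split was seen. DKOITD53e was covered less than every WT mouse in 767 of the 806 members, DKOITD83 in 728 and DKOITD48 in 680. DKOITD185 was covered more than every WT mouse in 605 members and DKOITD52 in 528. DKOITD53e had the lowest cover of all 8 mice in 544 members, and DKOITD185 the highest in 459. Members covered at 50% or more numbered 166, 802, 90, 145 and 803 in the DKOITD mice, against 762, 479 and 697 in the WT mice. The longest unbroken peak in a member had a median of 2.43, 6.77, 1.77, 2.39 and 7.34 kb in the DKOITD mice, against 5.79, 3.84 and 5.16 kb in the WT mice. The mean number of pieces per member was 1.43, 1.39, 1.47, 1.63 and 1.26 in the DKOITD mice, against 1.67, 1.76 and 1.68 in the WT mice. By this count members lay in more pieces in the WT mice, whichever DKOITD mouse they were set against. The count is low both where a peak spans the member and where only a short stretch was called. It therefore does not rank how broken the mark was. Territory outside members differed still more. The share of a library's whole territory that lay in members was 72.6%, 27.1%, 87.2%, 68% and 21.5% in the DKOITD mice, against 26.9%, 38.6% and 31.1% in the WT mice. Having the least territory, DKOITD48, DKOITD53e and DKOITD83 thus had most of it in members.

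Which members were best covered was partly shared. Across the 806 members, Spearman's rho of percent covered was 0.535 to 0.637 between WT mice and 0.669 to 0.732 between DKOITD48, DKOITD53e and DKOITD83. It was 0.0188 between DKOITD52 and DKOITD185, and -0.0527 to 0.0475 between DKOITD185 and the WT mice. These are descriptions across regions that share libraries, controls and region length, and cover near 100% leaves little room to vary in DKOITD52 and DKOITD185.

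The ends of members were covered less than the middle in every mouse. Each of the 680 members of at least 5 kb was cut into 10 equal parts. The middle pair of parts was covered at 68.6%, 98.9%, 56.3%, 67% and 98.9% in the DKOITD mice, against 94.7%, 83.3% and 93.2% in the WT mice. The end parts were covered at 3.51%, 55.2%, 2.01%, 3.15% and 70.2% in the DKOITD mice, against 41.3%, 14.7% and 29.6% in the WT mice. The middle was thus covered 19.5, 28.04 and 21.3 times as much as the ends in DKOITD48, DKOITD53e and DKOITD83, against 2.29, 5.68 and 3.15 times in WT1, WT2 and WT3. The ratio was 1.79 in DKOITD52 and 1.41 in DKOITD185. Region limits are those of the widest library, so low cover of the ends in the others follows in part from the merging.

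**Figure D2:**
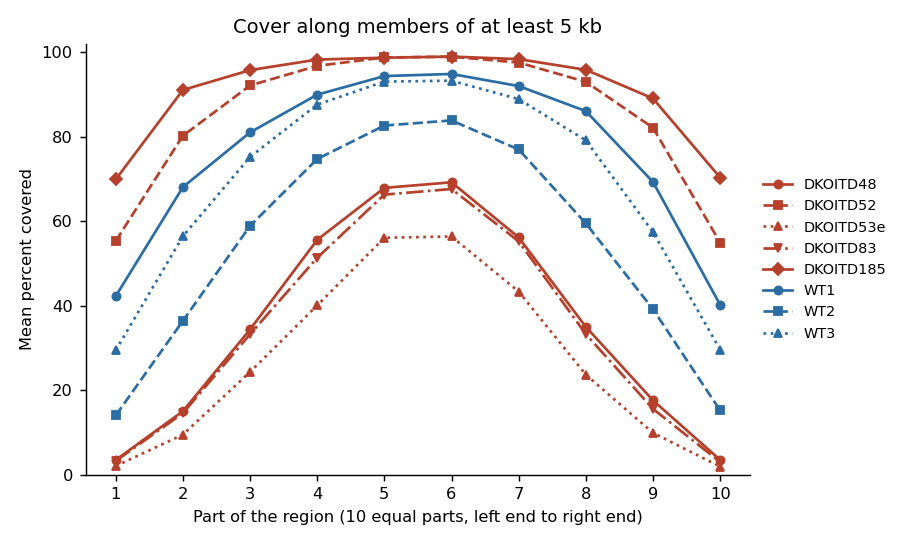
Mean percent covered by H3K27me3 peaks (y axis) in each of 10 equal parts of a member (x axis, left end to right end) for the 680 members of at least 5 kb, 1 line per mouse (DKOITD red, WT blue). Cover is highest in the middle in all 8 mice and lowest at the ends, where DKOITD48, DKOITD53e and DKOITD83 have 2.01% to 3.51%.

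The stretch covered in all 8 mice, called the core here, was found in 798 of the 806 members. It summed to 2.26 Mb, 23.99% of member length, with a median of 1.42 kb (quartiles 0.836 and 3.09 kb). In 59 members it made up 50% or more of the region. The 8 members without a core, at Kcnj8, Spsb4, Rbfox3, Cdhr2, H2-Q6 and Gm35196 and inside Tmprss2 and Skor2, were covered in each mouse at places that did not all coincide. These 8 were listed after their values were seen.

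The core lay close to gene ends. In 678 members with a gene end, it covered 44.3% of the bases within 0.5 kb of a gene end, 39.6% at 0.5 to 1 kb, 28.4% at 1 to 2 kb, 16.4% at 2 to 5 kb, 12.6% at 5 to 10 kb and 8.66% beyond 10 kb. Within 0.5 kb the mice covered 64.8%, 94.9%, 52.2%, 61.8% and 96.9% in the DKOITD mice, against 92.6%, 79.7% and 89.9% in the WT mice. Beyond 10 kb they covered 23.9%, 77.6%, 12.3%, 21.3% and 92% in the DKOITD mice, against 64.8%, 38.4% and 54.5% in the WT mice. Cover was lower beyond 10 kb than within 0.5 kb in all 8 mice, and DKOITD185 stayed at 89.1% or more throughout. Of the 788 genes with an end in a member, 424 had an end in a core.

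Cover varied with the length of a member, not in 1 direction. Members of 5 to 10 kb had median covers of 29.2%, 84.2%, 21.3%, 29.6% and 90.6% in the DKOITD mice, against 75.1%, 51.5% and 67.3% in the WT mice. For members of 20 to 40 kb the medians were 48.4%, 91.7%, 30.9%, 43% and 96.6% in the DKOITD mice, against 85.3%, 64.7% and 80.2% in the WT mice, higher in each mouse. For the 15 members over 40 kb they were 42.9%, 93.2%, 23.1%, 38.2% and 97.6% in the DKOITD mice, against 83.9%, 63.3% and 79.3% in the WT mice, lower again in all but DKOITD52 and DKOITD185. The 15 members under 1 kb, most of them of high background, had medians of 90.2% to 98.2%. Peaks inside members had a higher median of the authors' fold enrichment than other peaks of the same library. After leaving out members of high background, their median fold enrichment over local background was 5, 6.18, 4.56, 4.6 and 5.96 in the DKOITD mice, against 4.61, 4.43 and 4.97 in the WT mice. For peaks outside members the medians were 3.36 to 4.02. Of each library's 500 strongest peaks by −log10 q, 437, 349, 445, 402 and 375 lay in members in the DKOITD mice. In the WT mice 251, 253 and 258 did. Of all peaks, 43.3%, 7.2%, 62.8%, 39.8% and 3.98% lay in members in the DKOITD mice, against 7.79%, 17.8% and 11.4% in the WT mice. The libraries differ in their number of peaks, so the counts among 500 are not compared between the groups.

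Many developmental transcription factors had an end in a member. All 9 HoxC and all 9 HoxD genes did, as did 7 of 10 HoxB and 6 of 11 HoxA genes. Of 90 other homeobox genes 71 did, and of 44 Sox, Fox, T-box and Gata genes 30 did. These shares compare with 3.60% of all protein-coding genes. Basic helix-loop-helix factors numbered 11 of 35. By the same count 0 of 25 housekeeping genes lay in members. The lists were chosen with earlier results of these data known, so the counts are descriptions.

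**Figure D3:**
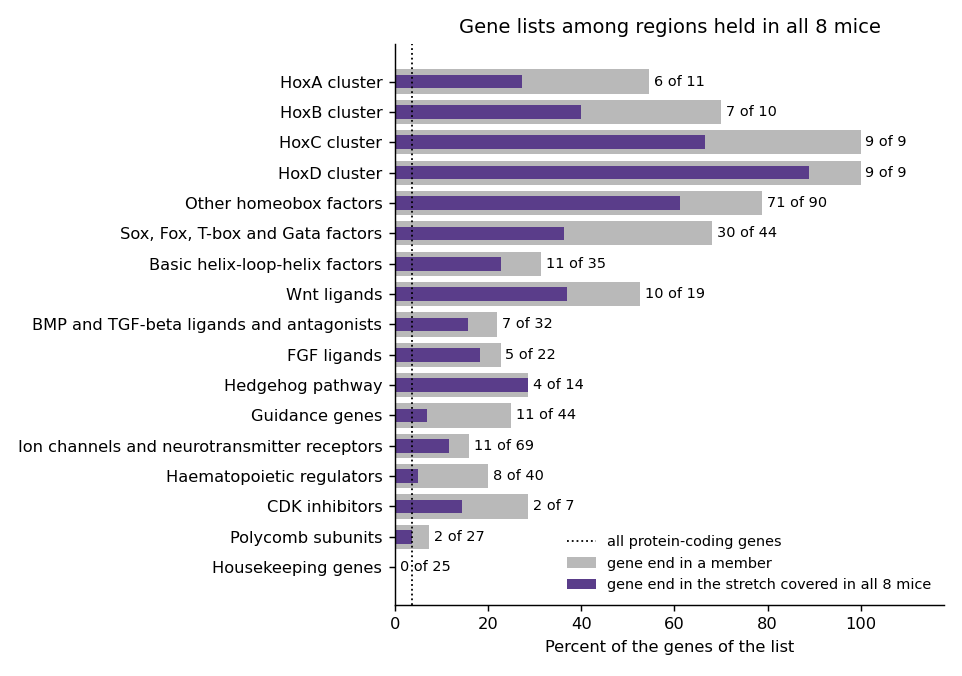
Percent of each gene list (rows) with a gene end in a region held in all 8 mice (grey bars, with counts) and with a gene end in the core covered in all 8 (purple bars), as a percent of the list's genes (x axis). The dotted line marks the 3.60% of all protein-coding genes; homeobox lists reach 54.5% to 100% and housekeeping genes 0.

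By core length the leading homeobox genes outside Hox were Evx2, which shares the HoxD region, Dlx1 and Dlx2, a gene pair of forebrain and jaw, and Lhx2, a LIM factor of eye and forebrain. The Dlx1 and Dlx2 region spanned 31.8 kb with a core of 21.1 kb and was covered at 71.8%, 98.9%, 66.2%, 71.2% and 99.6% in the DKOITD mice, against 90.3%, 77% and 92.6% in the WT mice. Over the 70 regions that hold the 71 homeobox genes the median cover was 53%, 92.2%, 36.1%, 50.6% and 96.4% in the DKOITD mice, against 86.6%, 66.3% and 82.7% in the WT mice. For the 30 Sox, Fox, T-box and Gata genes the medians were 47.2%, 89.1%, 30.4%, 40.3% and 95.5% in the DKOITD mice, against 85.5%, 63.9% and 78.5% in the WT mice. Their longest cores were at Tbx2, a cardiac T-box factor (12.8 kb), Sox1, a neural progenitor factor (11.1 kb), Foxd3, a neural crest factor (10.3 kb), and Gata4 (9.98 kb). Among basic helix-loop-helix factors, Olig2, of oligodendrocytes and motor neurons, had a core of 10.7 kb, followed by Neurog2 (6.58 kb), Hand1 (5.99 kb) and Neurod2 (5.34 kb). In both sets of medians DKOITD53e was lowest, and DKOITD48 and DKOITD83 lay under every WT mouse.

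Genes of signalling pathways were also among the members, which held 10 of 19 Wnt ligands, 7 of 32 ligands and antagonists of the BMP and TGF-beta family, 5 of 22 FGF ligands and 4 of 14 Hedgehog pathway genes. Wnt7b, Wnt1, Wnt11 and Wnt9b had the longest Wnt cores, of 3.62, 3.52, 1.98 and 1.95 kb. Wnt9b and Wnt3 lie in 1 member and cannot be counted as separate regions. For the BMP family they were Gdf7 (5.03 kb), the BMP antagonists Nog (3.48 kb) and Chrd (2.28 kb), and the activin subunit Inhbb (2.35 kb). Fgf9, a growth factor of testis and lung, had 4.7 kb, and the Hedgehog ligands Dhh and Ihh had 3.81 and 3.25 kb. The Hedgehog receptor Ptch1 was covered at 13%, 88.1%, 16.9%, 19.6% and 74.2% in the DKOITD mice, against 68.4%, 65.8% and 83% in the WT mice. Guidance genes numbered 11 of 44, led by the ephrins Efna3 and Efna5, and channels and transmitter receptors 11 of 69, led by the potassium channel Kcnh3 and the glutamate receptor subunit Grin1.

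Of 40 regulators of blood development 8 lay in members: Tal1, Ebf1, Pax5, Lef1, Bcl11b, Mecom, Zbtb16 and Tbx21. Lef1, a Wnt effector in early lymphocytes, had the longest core (6.91 kb) and was covered at 54%, 76.5%, 62.2%, 60.03% and 79.5% in the DKOITD mice, against 67.4%, 62.1% and 95.1% in the WT mice. Pax5, which commits cells to the B lineage, had a 23.8 kb member covered at 39.9%, 80.4%, 26.9%, 35.5% and 93.1% in the DKOITD mice, against 69.4%, 62.8% and 67.4% in the WT mice. Bcl11b, which commits cells to the T lineage, had 28.5%, 78.2%, 16.4%, 31.5% and 90.9% in the DKOITD mice, against 72.7%, 38.3% and 64.5% in the WT mice. Ebf1, an early B-cell factor, had 41.9%, 71.7%, 12.9%, 25.8% and 97.9% in the DKOITD mice, against 73.6%, 18.6% and 50.6% in the WT mice, so WT2 lay below DKOITD48 and DKOITD83 there. Except at Lef1, Ebf1, Zbtb16 and Tal1, DKOITD48, DKOITD53e and DKOITD83 lay below all 3 WT mice at these genes. The median over the list was 37.8%, 80.0%, 17.7%, 35.8% and 92% in the DKOITD mice, against 71.1%, 50.2% and 66% in the WT mice.

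The cell-cycle inhibitor locus Cdkn2a and Cdkn2b, which restrains proliferation and is a classic Polycomb target in blood cells, lay in 1 member of 43.6 kb. It was covered at 32.8%, 97.6%, 15.4%, 34.5% and 97.6% in the DKOITD mice, against 67.9%, 56.8% and 74.4% in the WT mice. Its core was 4.84 kb. Among 27 Polycomb subunit genes 2 lay in members, Pcgf1 and Cbx8. The Cbx8 region was covered at 65.1%, 99.2%, 41.6%, 68.3% and 83.5% in the DKOITD mice, against 87.8%, 72% and 91.7% in the WT mice. No engineered gene was in a member, and in the windows of 1 kb around gene ends Flt3 carried H3K27me3 in 1 of 5 DKOITD and 3 of 3 WT mice.

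Members whose cover did not overlap between the genotypes were few. In 9 of the 806 members (1.12%) every DKOITD mouse was covered less than every WT mouse, beside 0.768% of all 41384 regions. In 2 members every DKOITD mouse was covered more, beside 0.0193% of all regions. The rule used these peaks, so nothing is read from the counts. Those 9 included by construction DKOITD52 and DKOITD185, whose cover of most members was above that of WT. Of the 9, 5 were at least 5 kb long.

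Among the 5 of at least 5 kb, the largest difference was at Wnt10b, a Wnt ligand of bone and skin (6.59 kb, mm10 chr15:98775096-98781685). It was covered at 19.4%, 81.1%, 31.8%, 30.4% and 54.2% in the DKOITD mice, against 93.7%, 91.4% and 86.9% in the WT mice. All 3 WT mice stood above every DKOITD mouse, of which DKOITD52 came closest. The means were 43.4 ± 24.6% (SD, n = 5) and 90.7 ± 3.45% (SD, n = 3). Tafa2, a secreted protein of the brain, had 31.8%, 61.4%, 16.6%, 25.5% and 54.2% in the DKOITD mice, against 86.1%, 64.8% and 94.8% in the WT mice. Atf3, a stress-induced transcription factor (12.7 kb, mm10 chr1:191177117-191189835), had 22.9%, 50.9%, 18.5%, 20.6% and 37.1% in the DKOITD mice, against 83.5%, 59.6% and 72% in the WT mice. Its highest DKOITD value, in DKOITD52, was below its lowest WT value, in WT2. Farp1, a guanine nucleotide exchange factor, had 32.6%, 85.6%, 43.2%, 23.7% and 85% in the DKOITD mice, against 99.2%, 89% and 98% in the WT mice, with DKOITD52 and DKOITD185 just under WT2. Slc35f1 had 21.3%, 32.5%, 19.2%, 16.9% and 30.5% in the DKOITD mice, against 100%, 35.7% and 39.4% in the WT mice, where WT1 alone stood far above the rest. The 4 shorter members were at the protease inhibitor Spint1, at the ephrin receptor Ephb2 and inside Kcnn1 and Arhgap21. These last 4 fall outside the length limit for naming and are listed for completeness, and the one inside Arhgap21 is a 0.283 kb stretch of high background.

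Tal1 was the member of at least 5 kb covered more in every DKOITD mouse. It encodes a basic helix-loop-helix factor needed for blood stem cells and red cells, and is an oncogene of T-cell leukaemia. The member (14.3 kb, mm10 chr4:115051175-115065490) spans the left end of the gene. It was covered at 33.5%, 82.5%, 23.4%, 46.6% and 97.2% in the DKOITD mice, against 19.96%, 14.6% and 16.2% in the WT mice. Every DKOITD mouse exceeded every WT mouse, and the lowest was DKOITD53e. The means were 56.6 ± 31.9% (SD, n = 5) and 16.9 ± 2.76% (SD, n = 3). DKOITD48, DKOITD53e and DKOITD83, which were covered less than WT in most members, thus had more at Tal1. The other such member was a 0.54 kb stretch of high background on chromosome 12. Kit, on which WT marrow was selected, carried H3K27ac in 0 of 5 DKOITD and 3 of 3 WT mice, so cell preparation and genotype cannot be told apart at Tal1 either.

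**Figure D4:**
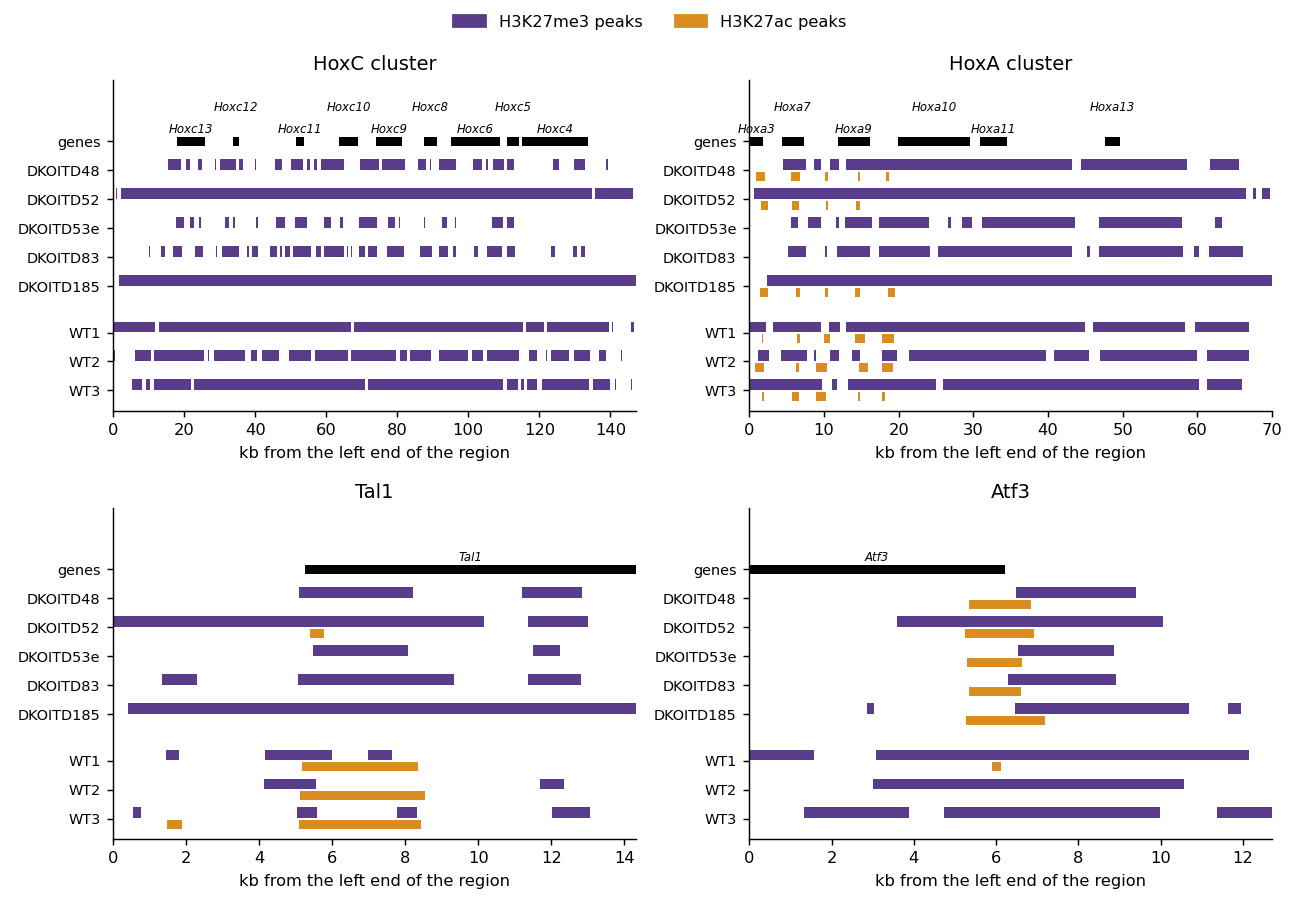
H3K27me3 peaks (purple) and H3K27ac peaks (orange) of each mouse (rows, DKOITD above WT) along 4 regions held in all 8 mice, in kb from the left end of the region, with genes in black. HoxC is broken into pieces in DKOITD48, DKOITD53e and DKOITD83; at Tal1 the long H3K27ac peaks of the 3 WT mice overlap stretches that lie under H3K27me3 in the DKOITD mice, and WT mice have H3K27me3 at the left gene end too; at Atf3 the H3K27ac of the 5 DKOITD mice lies at the gene end.

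H3K27ac played no part in choosing the members and was tested. The share of the 806 members with at least 200 bp of it was 7.32%, 6.33%, 3.6%, 4.09% and 6.7% in the DKOITD mice, against 6.2%, 4.22% and 4.84% in the WT mice. The means were 5.61% ± 1.66 (SD, n = 5) in DKOITD and 5.09% ± 1.02 (SD, n = 3) in WT marrow, a difference of 0.521 points that was within the spread between mice (two-sided exact permutation test over 56 assignments, p = 0.75, smallest possible p = 0.0357). A p that misses the threshold does not show that the groups are alike. In a single library the 95% exact binomial interval was, for example, 5.62% to 9.34% in DKOITD48 and 4.64% to 8.10% in WT1. It covers counting error only and treats the 806 members as independent draws, so it does not measure the spread between mice. Regions that were not members had H3K27ac in 1.83% ± 0.505 (SD, n = 5) and 1.52% ± 0.255 (SD, n = 3), and an exact permutation test gave p = 0.393. Most of those regions were far shorter than members, with less room for 200 bp, so their share is not compared with that of members. Regions held by 7 libraries had it in 8.56%, 4.8%, 2.71%, 3.34% and 6.26% in the DKOITD mice, against 4.38%, 3.34% and 5.01% in the WT mice. No H3K27ac of that length was found in any mouse in 690 members. It was found in all 8 mice in 8 members, of which 5 had high background. The other 3, named after their values were seen, were at Nr4a2, inside Zfhx3 and at Gm36315. At equal peak numbers the difference was 1.47 points with an exact permutation p = 0.0357, the smallest the design allows.

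H3K27ac and H3K27me3 shared bases within members. Outside members of high background, the share of H3K27ac bases that also lay under the same mouse's H3K27me3 peaks was 52.9%, 85.1%, 48.5%, 42.9% and 79% in the DKOITD mice, against 81.1%, 59.1% and 65.3% in the WT mice. It was highest in DKOITD52, WT1 and DKOITD185, the libraries with the largest H3K27me3 territories. Over all members, the share of member length under H3K27me3 peaks was 40.1%, 87.1%, 29.3%, 37.8% and 92.3% in the DKOITD mice, against 77.9%, 56.8% and 71.5% in the WT mice. The overlap was below that cover in DKOITD52, DKOITD185 and WT3 and above it in the other 5 mice. Bulk peaks cannot show whether both marks were in the same cells.

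The length of H3K27ac within each region was then compared with limma on log2(kb + 0.1), over the 1091 regions with H3K27ac in at least 3 of 8 libraries. Only 62 of the 806 members entered this test, and 744 had too little H3K27ac. limma with Benjamini-Hochberg adjustment called 10 members lower and 6 higher in DKOITD marrow at an adjusted p under 0.05, beside 11.1% and 13.3% of all 1091 regions. The members called made up 16.1% and 9.68% of the 62 members tested. Regions that reach the limit of 3 libraries through WT alone had to be lower in DKOITD, and those that reach it through DKOITD alone had to be higher, so these counts do not support a direction for members. The median log2 difference was 0.18 over the 62 members and 0.29 over all regions tested. Every WT H3K27ac library was shallower than any DKOITD one, with 9435546 to 11458360 fragments in DKOITD against 6515614 to 7072997 in WT. Depth and genotype thus cannot be told apart in the higher calls. H3K27ac peaks in all covered 13.1, 20.4, 7.03, 7.46 and 23.8 Mb in the DKOITD mice, against 29.7, 16.8 and 21.2 Mb in the WT mice. Territory was thus smallest in DKOITD53e and DKOITD83.

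The member with the largest fall was again Tal1. H3K27ac covered 0, 0.374, 0, 0 and 0 kb in the DKOITD mice, against 3.18, 3.42 and 3.77 kb in the WT mice there. All 3 WT mice had 3.18 kb or more and only DKOITD52 had any among the DKOITD mice. The log2 difference was -4.70 (SE 0.56). This region reached the limit of 3 libraries through the WT mice, where it was high, so its p-value is not given. In each WT mouse the long peak began at 5.09 to 5.16 kb of the region, near the left end of the gene at 5.25 kb. In WT, 12.9% to 47.1% of that H3K27ac also lay under H3K27me3 of the same mouse. In DKOITD48, DKOITD53e and DKOITD83 an overlapping stretch carried an H3K27me3 peak that began at 5.07 to 5.48 kb and ended at 8.07 to 9.34 kb. The call held in each of 13 alternatives in which the region could be tested, which reuse the same mice and are no separate support.

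Ache, which encodes acetylcholinesterase, had 0 kb in all 5 DKOITD mice, against 0.523, 1.72 and 2.1 kb in the WT mice. Amigo2, an adhesion molecule with leucine-rich repeats, had 0 kb in all 5 DKOITD mice, against 0.884, 0.551 and 1 kb in the WT mice. Foxd4, Serpine2 and Ppargc1a were likewise listed at 0 in all 5 DKOITD mice, with 0.236 to 1.07, 0.349 to 1.57 and 0.279 to 1.69 kb in the WT mice. These 5 entered the test through the WT mice alone and could only be lower in DKOITD, so their p-values are not given. Foxd4 is a forkhead factor, Serpine2 a protease inhibitor and Ppargc1a a coactivator of mitochondrial genes. No fold is given against a group at 0. Amotl2, an angiomotin relative, the region of E030030I06Rik with the NKG2D ligand gene Raet1e, and a region inside the phosphatase gene Ppm1l were also called lower. The longest H3K27ac in them was 1.10, 0.359 and 0.295 kb in a WT mouse. None of them would have reached 3 libraries through DKOITD mice alone, so their p-values are not given.

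Atf3 had the most H3K27ac of the 6 higher calls, with 1.52, 1.69, 1.34, 1.27 and 1.92 kb in the DKOITD mice, against 0.223, 0 and 0 kb in the WT mice. All 5 DKOITD mice were above every WT mouse. The log2 difference was 3.46 (SE 0.41). This region reached the limit of 3 libraries through the DKOITD mice, where it was high, so its p-value is not given. The call held in 13 alternatives and was lost when only peaks of −log10 q at least 5 were kept. These alternatives reuse the same mice and are no separate support. In DKOITD mice the peaks began at 5.24 to 5.35 kb of the region, next to the right end of the gene at 6.22 kb. In DKOITD48, DKOITD53e, DKOITD83 and DKOITD185 the main H3K27me3 peak began only at 6.30 to 6.53 kb, and in DKOITD52 at 3.58 kb. In WT1, WT2 and WT3 a peak of H3K27me3 that began at 3 to 4.73 kb ran over that gene end. Atf3 was thus both covered less by H3K27me3, by the same peaks that chose the members, and longer in H3K27ac.

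Ptprs, a receptor tyrosine phosphatase, had 2.14, 1.95, 0.412, 0.599 and 1.69 kb in the DKOITD mice, against 0 kb in all 3 WT mice. Whrn, which encodes the scaffold whirlin of sensory hair cells, had 0.939, 1.12, 1.01, 0.538 and 1.01 kb in the DKOITD mice, against 0 kb in all 3 WT mice. The region of Gm46725 and Spag6, a sperm axoneme gene, had 2.61, 0.665, 0.678, 0.515 and 0.712 kb in the DKOITD mice, against 0 kb in all 3 WT mice, with DKOITD48 far above the other DKOITD mice. All 3 were listed at 0 in the WT mice. These were the members with at least 200 bp of H3K27ac in all 5 DKOITD mice and no WT mouse, 0.372% of members beside 0.208% of all 41384 regions. The reverse held for Serpine2, Ppargc1a, Ache, Amigo2 and Foxd4, 0.62% of members beside 0.169% of all regions. Hspa1a, the inducible heat shock protein gene, had 0.46, 0.519, 0.202, 0.125 and 0.222 kb in the DKOITD mice, against 0 kb in all 3 WT mice. Ptprs, Whrn, Gm46725 and Hspa1a entered the test through the DKOITD mice alone and could only be higher, so their p-values are not given. A region inside the nuclear receptor gene Nr4a3 was also called higher, and WT2 overlapped the DKOITD range there. It too reached 3 libraries through the DKOITD mice, so its p-value is not given. The calls inside Ppm1l and Nr4a3 were the least stable: with 1 library left out, the call inside Ppm1l was lost without any mouse but DKOITD48, and the call inside Nr4a3 without any mouse but WT2. Those at Amotl2 and at E030030I06Rik were lost without WT1 or WT3. Unlike Atf3 and Tal1, these regions had H3K27me3 cover that overlapped between the genotypes, for instance 33.8%, 82.3%, 14.2%, 13.9% and 75% in the DKOITD mice, against 85.6%, 72.7% and 92.4% in the WT mice at Ptprs.

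**Figure D5:**
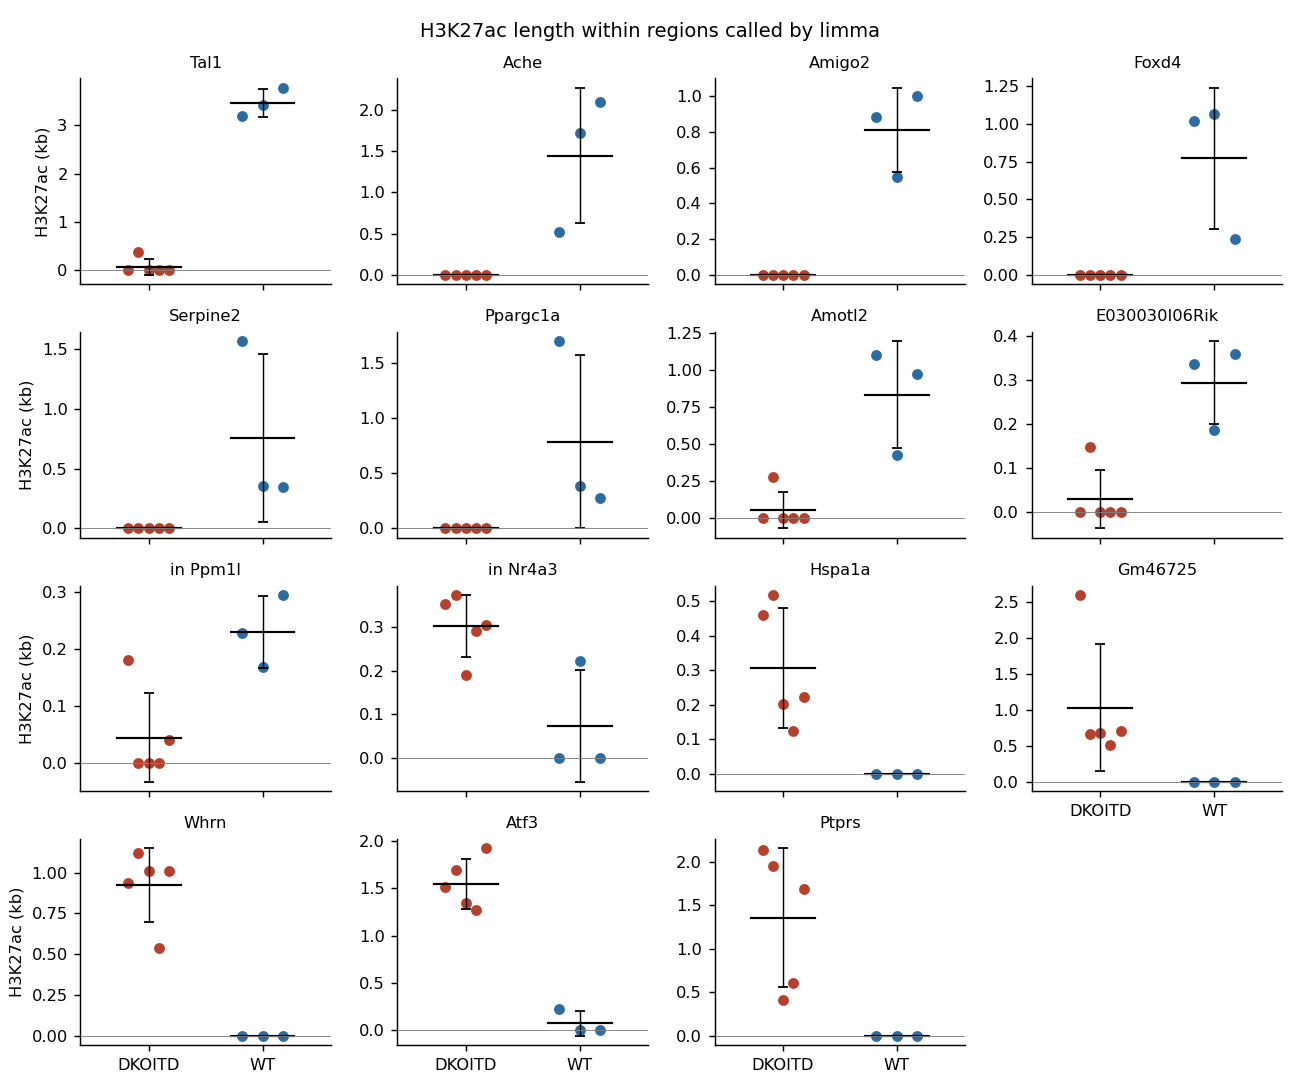
Length of H3K27ac peaks (kb, y axes differ between panels) within 15 of the 16 regions called by limma, for each DKOITD mouse (red, left) and WT mouse (blue, right), with mean and SD (black). The panels run from the largest fall in DKOITD, at Tal1, to the largest rise, at Ptprs.

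The HoxC member, both HoxD members and both HoxB members had no H3K27ac in any mouse. HoxA carried 3.37, 2.63, 0, 0 and 3.7 kb in the DKOITD mice, against 4.36, 5.84 and 3.36 kb in the WT mice within its 70.0 kb. These peaks lay within 19.5 kb of the left end, on the side of Hoxa3, Hoxa7 and Hoxa9. DKOITD53e and DKOITD83 had none, and these libraries had the smallest H3K27ac territories, 7.03 and 7.46 Mb against 13.1 to 29.7 Mb in the others. The limma adjusted p was 0.255, which missed the threshold.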

How the data were processed

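The data are broad H3K27me3 and H3K27ac peak lists of bone marrow from 5 DKOITD and 3 WT mice, 1 library per mouse and mark. Per the submitters' processing notes, reads were handled with Bowtie2 2.2.5 and MACS2 2.0.10 on mm10. Per the file headers, the authors called peaks with MACS 2.0.10.20131216 in its broad mode on paired fragments at a q cutoff of 0.05, keeping 1 duplicate, with the DKOITD48 input as control of all DKOITD libraries and the WT1 input as control of all WT libraries. Per the file headers, pileup is the signal (fragment coverage) of a peak, and its fold enrichment is the ratio of that signal to local background. The authors also deposited the −log10 of each peak's p-value and q-value. Human peak lists were not used here, and results at some loci are not reported here. H3K27me3 libraries held 2766339 to 6411696 fragments, and at that depth weakly enriched stretches can go uncalled.

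Overlapping or touching peaks were merged within a library and then over the 8 libraries. Coordinates are 1-based mm10, and genes came from a RefSeq table of GRCm38.p6 without strand. With no genome or promoter sequences at hand, none are printed and base composition was not analysed here. Percent cover is described without a test. A member had H3K27ac when peaks covered at least 200 bp. Group differences of single values used two-sided exact permutation tests over 56 assignments (scipy 1.17.1). H3K27ac kb per region was fitted with limma 3.58.1 (trend) in R 4.3.3 on log2(kb + 0.1 kb). The added 0.1 kb understates log2 differences between low values. The fit took all regions with H3K27ac in at least 3 libraries, with Benjamini-Hochberg adjustment over all of them. The interval and limma code was tested on simulated data. The members and the 17 gene lists were chosen with earlier results of these data known. Genes named are those of the 10 longest members, of the 10 most completely covered, of the 10 largest differences each way among non-overlapping members of at least 5 kb, of the 3 members on each side of the 10% limit, of limma calls, of up to 4 genes per list by core length, and the engineered genes. Labels name libraries by mouse, and p-values set group differences against the spread between these mice. In limma that spread is in part shared over all regions tested. Alternatives were other cover limits, merging within 1 kb, stricter or equally many peaks, other pseudocounts and filters, and leaving out libraries.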

Additional observations from a re-analysis of the deposited data

Results flagged for a closer look

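A value was listed here when, among the 5 DKOITD mice, the highest or lowest lay so far from its nearest neighbour that the gap, as a share of the range over the 5, exceeded Dixon's 95% critical value. Of 58 sets of values examined, 8 met this, of which 7 are given here, and chance gives about 1 in 20 where values are continuous. For Tal1, Amotl2 and E030030I06Rik the other 4 DKOITD mice were all at 0, so that any value above 0 meets the criterion and that rate does not apply. At the 5S ribosomal RNA array (n-R5s100), H3K27me3 covered 83.1% in DKOITD53e and 96.8% to 99.9% in the other 4 DKOITD mice. The H3K27ac share of the bases that a mouse's H3K27me3 peaks left uncovered in members was 1.298% in DKOITD185 and 0.116% to 0.392% in the other 4.

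The other 5 concern the length of H3K27ac in a member. In the region of Gm46725 and Spag6 it was 2.61 kb in DKOITD48 and 0.515 to 0.712 kb in the other 4 DKOITD mice. Inside Ppm1l it was 0.18 kb in DKOITD48 and 0 to 0.04 kb in the others. DKOITD52 was the only DKOITD mouse with any H3K27ac at Tal1 (0.374 kb), at Amotl2 (0.277 kb) and at E030030I06Rik (0.147 kb).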

How the results depend on the processing

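No paired analysis was possible because WT and DKOITD libraries carry different mouse numbers. The number of members was 1059 at a cover limit of 5%, 308 at 25% and 73 at 50%, 718 with peaks within 1 kb merged, and 810 to 1205 with 1 library left out, the highest without DKOITD53e. With peaks of −log10 q at least 5 it was 21, at equal peak numbers 475, and without DKOITD48, DKOITD53e and DKOITD83 together 4126. The difference in mean cover (-12.1 points) changed sign with the stricter peaks (22.2), at equal peak numbers (0.253) and without those 3 mice (20.3), and was -20.9 to -5.36 with 1 library left out. Of H3K27me3 peaks, the stricter limit kept 375, 2015, 184, 187 and 1543 in DKOITD48, DKOITD52, DKOITD53e, DKOITD83 and DKOITD185, against 265, 95 and 814 in WT1, WT2 and WT3.

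The 9 members covered less in every DKOITD mouse became 1 with the stricter peaks and 9 to 35 with 1 library left out, the highest without WT2 (16 without DKOITD52 and 15 without DKOITD185). The 2 covered more became 1 with 1 kb merging, 17 with the stricter peaks, 26 at equal peak numbers, 463 without the 3 mice, 1 without high-background members (an alternative added after the data were seen), and 2 to 5 with 1 library left out, the highest without WT1.

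The difference in members with H3K27ac (0.521 points) was 1.47 at equal peak numbers, with an exact permutation p of 0.0357, and -0.216 with members chosen at 25%. It was 0.0868 to 1.08 with 1 library left out (exact permutation p 0.4 to 1, over all alternatives 0.0357 to 1). The 10 members limma called lower became 2 with the stricter peaks, 4 at equal peak numbers and 4 without the 3 mice, and were 3 to 10 with 1 library left out. Without WT1 or WT3 3 were called, 2 of them among the 10, and without WT2 5, with 4 among the 10. With the stricter peaks 1 of the 2 was among the 10. Of the 10, 5 with H3K27ac in the WT mice alone no longer reached 3 libraries without a WT mouse and were not tested. Others were tested and not called. The 6 called higher became 0 with the stricter peaks (by limma, where 10 of 23 members tested had an unadjusted p under 0.05 in either direction). Higher calls numbered 8 at equal peak numbers, 3 without the 3 mice and 5 to 11 with 1 library left out, the highest without DKOITD53e. Of those 8, 3 and 11, only 5, 1 and 5 were among the 6, so the members called also changed. In all, 71 of 100 alternative values were scored the same as the main one, 24 moved, 4 changed sign and 1 became stronger. Counts were scored the same when close in size to the main count. Mean cover was scored the same when it kept its sign and lay within 1 WT SD (10.7 points). The share of members with H3K27ac was scored by its sign and by whether the permutation p passed the threshold. Depth and enrichment limit which weak peaks are seen, so a stretch without a peak may still carry the mark.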
